A study of Mus musculus with 18 samples.

Results

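Skeletal muscle genes were followed in bulk RNA sequencing of mouse skin. The 33 genes were taken by name from a list of contractile, calcium-handling and metabolic genes of skeletal muscle, and all 33 are among the 41605 genes listed in each count file. The filter on low counts kept 16836 genes, 32 of the 33 among them. The gene that was not kept was Myh7, the slow myosin heavy chain gene. The skin came from C57BL/6 mice aged 8 to 12 weeks, treated with Detergent B, with Detergent A or with PBS, the buffered saline that served as control, with 6 libraries in each of the 3 groups. The dose, the length of treatment and the body site were not stated in the sources used here. The labels do not say that each library is from an animal of its own, so p-values measure the spread between these libraries.

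Mouse skin rests on the panniculus carnosus, a thin sheet of skeletal muscle under the dermis and fat, and a full-thickness piece of skin carries some of it. A skeletal muscle fibre contracts when myosin motors of the thick filament pull on actin of the thin filament, under the control of calcium released from the sarcoplasmic reticulum. Fibres differ in the isoforms they make: Myh4, Myh1 and Myh2 encode the fast IIb, IIx and IIa heavy chains, Myh7 encodes the slow chain, and the troponin genes come in fast and slow pairs. In bulk tissue, fewer muscle cells and less muscle RNA per cell cannot be told apart.

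Myh2, Myh1 and Myh4 lie side by side in this order on the + strand of chromosome 11, at 67171027-67197517, 67200052-67224575 and 67238029-67260446 (GRCm38, GENCODE M21), and their levels are compared at length here because Myh4 differed from Myh1 and Myh2 in the sign of its log2 fold change for Detergent B over PBS. Their promoters are shown because the same stretch of bases occurs in all 3. Each line gives the RefSeq window on build GRCm38.p6 from 250 bases before to 50 bases after the transcript start, read 5′ to 3′ on the + strand, at chr11:67199852-67200151 for Myh1, chr11:67170777-67171076 for Myh2 and chr11:67237562-67237861 for Myh4. Capitals mark the longest run of bases found in all 3 windows.
Myh1: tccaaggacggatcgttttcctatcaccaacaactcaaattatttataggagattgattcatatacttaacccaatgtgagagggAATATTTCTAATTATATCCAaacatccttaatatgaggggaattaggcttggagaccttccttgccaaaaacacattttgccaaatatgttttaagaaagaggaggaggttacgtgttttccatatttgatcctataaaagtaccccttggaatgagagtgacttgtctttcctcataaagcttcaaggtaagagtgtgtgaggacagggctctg
Myh2: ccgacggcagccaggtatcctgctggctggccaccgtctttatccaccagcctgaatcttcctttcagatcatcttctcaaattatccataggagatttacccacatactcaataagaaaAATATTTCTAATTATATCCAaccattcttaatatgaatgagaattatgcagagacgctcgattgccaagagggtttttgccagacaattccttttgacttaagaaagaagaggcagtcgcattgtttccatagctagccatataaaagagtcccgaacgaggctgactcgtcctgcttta
Myh4: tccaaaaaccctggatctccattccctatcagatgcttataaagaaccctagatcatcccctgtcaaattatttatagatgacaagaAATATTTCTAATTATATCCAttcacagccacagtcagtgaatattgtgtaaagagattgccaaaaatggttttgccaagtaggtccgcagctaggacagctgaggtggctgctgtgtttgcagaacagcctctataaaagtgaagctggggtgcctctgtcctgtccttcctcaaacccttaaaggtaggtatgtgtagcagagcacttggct

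The shared run was 20 bases long and began at base -165 in Myh1, -130 in Myh2 and -163 in Myh4, counted from the transcript start. Aligned over their whole length, the Myh1 and Myh4 windows were identical at 59.0% of alignment columns, Myh1 and Myh2 at 55.1%, and Myh2 and Myh4 at 51.3%. The E box, CANNTG searched on both strands, is the letter pattern bound by the MyoD family of muscle transcription factors. It occurred 3 times in the Myh4 window and 0 times in the Myh1 and Myh2 windows. The MEF2 consensus, searched by its usual degenerate form on both strands, occurred once each in Myh1 and Myh4 and 0 times in Myh2. TATAAA, like every pattern here counted on both strands, occurred 3 times in Myh4, 2 times in Myh1 and 1 time in Myh2. Windows were found for 27 of the 33 genes, 33 windows in all, and not for Tcap, Tnni2, Neb, Actn3, Tnnt3 and Myoz1. An E box was present in 27 of the 33 windows, against 72.3% of all 32851 promoter windows of the same length. MEF2 matches were in 4 of 33 windows against 3.19% of all, CArG box (SRF) matches in 4 against 1.63%, TATAAA in 6 against 13.6%, and the MCAT letters CATTCC in 11 against 14.7%. The 4 CArG windows belong to 3 genes, because overlapping windows of Ldb3 were counted separately. A match describes letters in the window and is not a measured binding site.

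Library totals ran from 17312623 to 29599018 counts. The 5 keratinocyte markers Krt5, Krt14, Krt1, Krt10 and Dsg1a summed to between 16501 and 46792 CPM in every library, CPM being the count scaled by the library's total to a common total. Before the comparisons, 3 libraries need naming. Detergent A replicate 3 had the lowest muscle content of all 18. In Detergent B replicate 4 long genes were low for their group: log2 CPM changed by -0.21 per doubling of exon length, both over the 29 muscle genes above a mean of 5 log2 CPM and over 6707 other genes above that level. In the other 17 libraries the slope over the other genes lay between -0.04 and 0.08. PBS replicate 6 was the highest of its group for Myh2 and Acta1, and the number of genes called changed when it was left out.

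The summed share of the 33 genes varied more between libraries of a group than between groups. They took 1.77% ± 0.466 of all counts in Detergent B libraries, 1.45% ± 0.361 in Detergent A libraries and 1.47% ± 0.326 in PBS libraries (SD, n = 6 each). The Detergent B libraries ran from 1.18% through a median of 1.76% to 2.41%, the Detergent A libraries from 0.834% through 1.54% to 1.82%, and the PBS libraries from 1.07% through 1.41% to 1.98%. All 3 groups overlapped, and the highest library, Detergent B replicate 2, held 2.89 times the share of the lowest. The difference of group means was 0.295 percentage points for Detergent B minus PBS (0.17 without Detergent B replicate 2), -0.02 for Detergent A minus PBS (0.11 without Detergent A replicate 3) and 0.31 for Detergent B minus Detergent A (0.18 without Detergent B replicate 2, 0.19 without Detergent A replicate 3). With TMM effective library sizes as the total, the Detergent B minus PBS difference was 0.45 points; the TMM factors ran from 0.926 to 1.04 in Detergent B libraries and from 0.988 to 1.09 in PBS libraries.

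**Figure D1:**
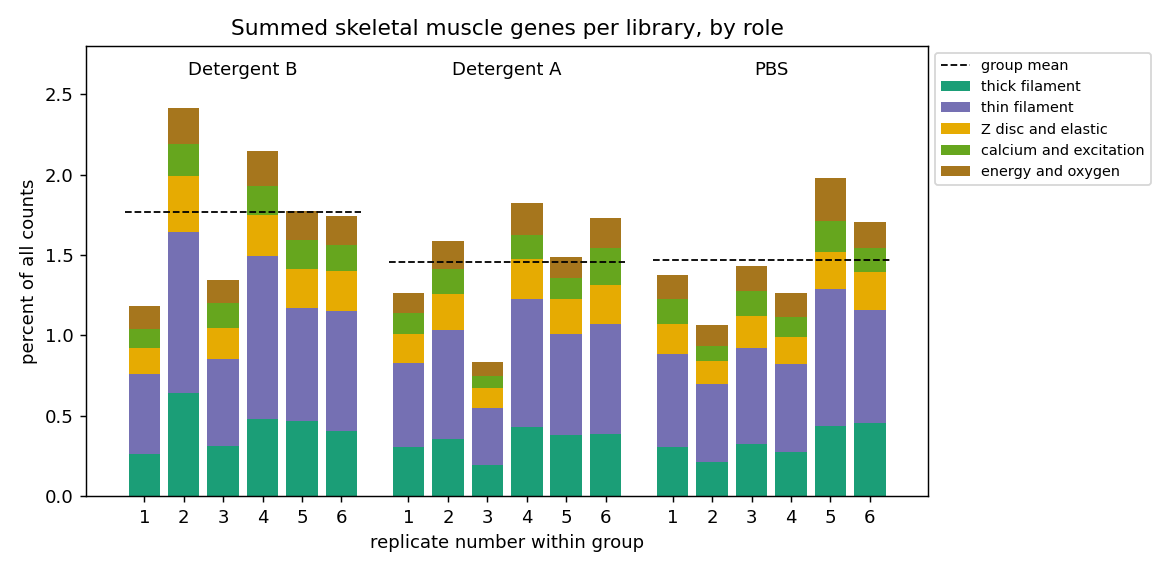
Summed share of the 33 muscle genes in percent of all counts, 1 bar per library, with the 5 role groups stacked and dashed lines at the group means. The bars run from 0.834% in Detergent A replicate 3 to 2.41% in Detergent B replicate 2, and the 3 groups overlap.

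The transcripts were unevenly divided. Acta1, skeletal alpha-actin, alone made up 16.1% of the counts of the 33 genes and Myh1 12.7%, and the first 6 genes, Acta1, Myh1, Atp2a1, Tnnt3, Ckm and Ttn, together made up 53.7%. Per kilobase of exon, Acta1 was highest at a mean of 1638 CPM per kb and stood above every other member in 18 of 18 libraries. Mylpf, Tnnc2 and Tnnt3 followed at 711, 695 and 685 CPM per kb and changed places between libraries, Mylpf being above Tnnc2 in 10 of 18 and Tnnc2 above Tnnt3 in 8 of 18. Tnni2 came next at 414 CPM per kb, below Tnnt3 in 18 of 18 libraries. Myh1, Atp2a1, Ckm and Tpm2 lay between 279 and 314 CPM per kb without a stable order. At the low end, Ryr1 at 4.54 CPM per kb was above the slow troponin genes in 18 of 18 libraries.

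The slow-fibre genes among the 33, Myh7, Tnnt1, Tnni1 and Tnnc1, were almost absent. Myh7 had 11 counts in all 18 libraries together, 1 in Detergent B, 5 in Detergent A and 5 in PBS libraries, and was at 0 in 14 libraries, each of which allows a level of up to 0.101 to 0.173 CPM (3 counts, counting error only). Tnnt1, slow troponin T, ran from 1.14 through a median of 1.84 to 3.68 CPM in Detergent B, from 0.437 through 1.56 to 1.85 CPM in Detergent A and from 1.69 through 1.96 to 2.56 CPM in PBS libraries. Its fast partner Tnnt3 ran from 850 through 1103 to 1908 CPM in Detergent B, from 555 through 993 to 1411 CPM in Detergent A and from 806 through 881 to 1513 CPM in PBS libraries. The fast form was thus the higher of the pair in every library. Per kb, Tnnt1 made up 0.127% ± 0.0549 of the Tnnt pair in Detergent B, 0.0939% ± 0.0436 in Detergent A and 0.155% ± 0.0353 in PBS libraries (SD, n = 6 each). Tnnc1, slow troponin C, had a median of 0.539 CPM in Detergent B, 0.488 CPM in Detergent A and 0.689 CPM in PBS libraries, within ranges of 0.357 to 1.64, 0.0481 to 1.38 and 0.401 to 1.15 CPM. Tnnc2, its fast partner, had a median of 548 CPM in Detergent B, 506 CPM in Detergent A and 453 CPM in PBS libraries, within ranges of 396 to 1028, 266 to 794 and 422 to 754 CPM. Fast exceeded slow per kb in 18 of 18 libraries for the T, I and C pairs alike, by at least 289 times. The slow light chain genes Myl2 and Myl3, outside the 33, had at most 3 and 6 counts in any library. In every group, nearly all adult myosin and troponin RNA measured was thus of the fast isoforms.

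In the thick filament, Myh1 and Myh2 had positive and Myh4 had negative log2 fold changes for Detergent B over PBS, none of which passed, and the genes were not tested against each other. Myh1, fast IIx, ran from 1421 through a median of 2172 to 3746 CPM in Detergent B, from 1220 through 2059 to 2221 CPM in Detergent A and from 920 through 1828 to 2537 CPM in PBS libraries. Myh2, fast IIa, ran from 164 through 256 to 400 CPM in Detergent B, from 133 through 202 to 283 CPM in Detergent A and from 155 through 164 to 327 CPM in PBS libraries. Both were higher on average with Detergent B and the groups overlapped. Their log2 fold changes for Detergent B over PBS were 0.55 ± 0.25 for Myh1 and 0.58 ± 0.23 for Myh2 (SE), with adjusted p = 0.202 and 0.149 by edgeR's quasi-likelihood test with Benjamini-Hochberg adjustment.

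Myh4, fast IIb, was the only one of the 32 genes with a negative value in that comparison. In Detergent B libraries it had 28.5, 182, 173, 53.1, 84.5 and 55.7 CPM, in Detergent A libraries 387, 77.6, 36.8, 236, 106 and 255 CPM, and in PBS libraries 242, 251, 237, 106, 334 and 260 CPM, each in the order of replicates 1 to 6. All 6 Detergent B libraries lay below the PBS mean, 2 of them above the lowest PBS library, and the Detergent A libraries overlapped both other groups. The log2 fold change was -1.19 ± 0.49 (SE) for Detergent B over PBS, with an unadjusted p of 0.0263 and an adjusted p of 0.158 by edgeR, so the difference did not pass. Over 27 other settings and left-out libraries its log2 fold change stayed between -1.49 and -0.99, with an adjusted p of 0.0456 with voomWithQualityWeights, a weighted limma fit, and above the threshold elsewhere, up to 0.571. It was -0.29 ± 0.49 for Detergent A over PBS (adjusted p = 0.786) and -0.90 ± 0.49 for Detergent B over Detergent A (adjusted p = 0.989). Detergent A replicate 1, at 387 CPM, bears on this last value, which was -0.55 without it.

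Set against the other heavy chains per kb of exon, Myh4 made up 3.75% ± 2.61 of the 4 adult genes in Detergent B, 8.47% ± 6.59 in Detergent A and 12.0% ± 4.64 in PBS libraries (SD, n = 6 each). The Detergent B shares ran from 1.83% through a median of 2.56% to 8.75%, the Detergent A shares from 2.82% through 7.002% to 20.5%, and the PBS shares from 6.56% through 11.4% to 19.9%. In Detergent B, 5 libraries lay below every PBS library, and replicate 3 lay inside the PBS range. The difference of mean shares was -8.24 points for Detergent B minus PBS, -3.52 for Detergent A minus PBS and -4.72 for Detergent B minus Detergent A. Without Detergent A replicate 1 the last 2 were -5.92 and -2.32, and without PBS replicate 2 the Detergent A minus PBS value was -1.93. Myh1 held 87.3% ± 1.96 in Detergent B, 83.5% ± 6.29 in Detergent A and 80.0% ± 5.61 in PBS libraries, and Myh2 8.91% ± 1.77, 8.03% ± 0.889 and 7.98% ± 1.83 (SD, n = 6 each). The 3 genes share sequence: 30.5% of the 50-base stretches of Myh1 transcripts, 24.6% of those of Myh2 and 18.9% of those of Myh4 also occur in another gene, and how reads that match several genes were counted is not stated in the sources used here. At 100 bases these shares are 13.99%, 9.49% and 3.85%.

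**Figure D2:**
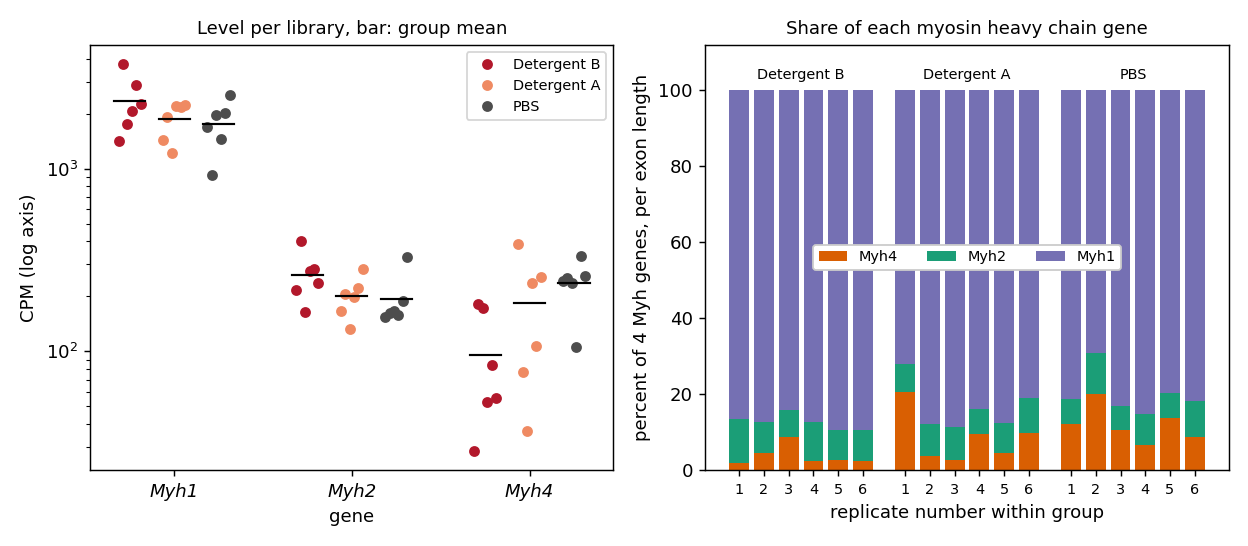
Left, CPM of Myh1, Myh2 and Myh4 on a log axis, 1 point per library with black bars at the group means; right, the share of each gene among Myh1, Myh2, Myh4 and Myh7 per exon length in each library, where Myh7 is too low to be seen. Myh4 averages 3.75% of the 4 genes in Detergent B, 8.47% in Detergent A and 12.0% in PBS libraries, with overlap.

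The other thick filament genes followed Myh1 rather than Myh4. Mylpf, the fast regulatory light chain, ran from 553 through a median of 843 to 1468 CPM in Detergent B, from 332 through 669 to 1022 CPM in Detergent A and from 496 through 568.4 to 1045 CPM in PBS libraries. It had the largest positive log2 fold change of the 32 genes for Detergent B over PBS, 0.59 ± 0.29 (SE, adjusted p = 0.223 by edgeR). Myl1, which encodes the fast essential light chains, averaged 514 ± 191, 390 ± 105 and 382 ± 133 CPM in Detergent B, Detergent A and PBS libraries (SD, n = 6 each), with a log2 fold change of 0.57 for Detergent B over PBS (adjusted p = 0.204). Mybpc2, fast myosin binding protein C, averaged 120 ± 31.0, 109 ± 36.2 and 106 ± 35.4 CPM in the same groups. Mybpc1, its slow form and not a member of the list, was higher in mean CPM. It averaged 331 ± 81.2, 284 ± 75.7 and 249 ± 53.1 CPM. None of these differences passed.

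In the thin filament, all 10 genes had log2 fold changes above 0 for Detergent B over PBS, with a median of 0.42, and none passed. Acta1 ran from 1752 through a median of 3098 to 4071 CPM in Detergent B, from 1218 through 2490 to 2873 CPM in Detergent A and from 1554 through 2337 to 3032 CPM in PBS libraries. Acta1 also overlaps Gm20388 on the opposite strand, at a mean of 127 CPM. Its log2 fold change was 0.43 ± 0.24 for Detergent B over PBS (adjusted p = 0.290 by edgeR) and 0.02 ± 0.24 for Detergent A over PBS (SE, adjusted p = 0.975). Acta1 levels in 4 of 6 Detergent B libraries were above the PBS mean and the groups overlapped. Tpm2, beta-tropomyosin, had the smallest standard error of the 32 genes, and averaged 923 ± 232 CPM in Detergent B, 759 ± 137 in Detergent A and 756 ± 139 in PBS libraries (SD, n = 6 each). Its log2 fold change for Detergent B over PBS was 0.43 ± 0.17 (SE) with an adjusted p of 0.142. Tpm1, alpha-tropomyosin, averaged 767 ± 216, 653 ± 164 and 765 ± 142 CPM and had a log2 fold change of 0.15, or 0.01 without Detergent B replicate 4. Neb, nebulin, which spans the thin filament, averaged 346 ± 105, 309 ± 57.7 and 283 ± 53.9 CPM, and Tnni2, fast troponin I, 699 ± 243, 580 ± 191 and 580 ± 145 CPM, in Detergent B, Detergent A and PBS libraries. Tropomyosin genes and Des are also active in smooth muscle and other cells.

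For Detergent A over PBS the slow troponin genes had negative values and the fast ones values of 0.10 to 0.11. Tnnt1, Tnni1 and Tnnc1, which encode slow troponin T, I and C, had log2 fold changes of -0.63 ± 0.34, -0.46 ± 0.48 and -0.27 ± 0.49 for Detergent A over PBS and of 0.81 ± 0.34, 0.51 ± 0.48 and 0.45 ± 0.49 for Detergent B over Detergent A (SE). Without Detergent B replicate 6 the last 3 values were 0.57, 0.10 and 0.01. All 6 Detergent A libraries had less Tnnt1 than the PBS mean, and the groups overlapped. The adjusted p-values of Tnnt1 by edgeR were 0.331 and 0.989 for these comparisons, and counts were low, from 10 to 108 per library for Tnnt1 and from 1 to 48 for Tnnc1. Tnnc1 overlaps Nisch on the opposite strand, whose mean of 267 CPM is far higher, and whether the counting used strand is not stated in the sources used here.

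Among the 7 genes of the Z disc and elastic filament, all had log2 fold changes above 0 for Detergent B over PBS, from 0.32 to 0.52. For Detergent A over PBS they ran from 0.01 to 0.28. These values are on the TMM scale. In mean CPM, Actn3, Myoz1 and Tcap were lower in Detergent A than in PBS libraries. Actn2, the alpha-actinin that cross-links actin at the Z disc, had the smallest adjusted p of the 32 genes for Detergent B over PBS. It averaged 292 ± 77.4 CPM in Detergent B, 254 ± 60.4 in Detergent A and 223 ± 39.6 in PBS libraries (SD, n = 6 each), with a log2 fold change of 0.52 ± 0.20 (SE) and an adjusted p of 0.123. Levels in 5 of 6 Detergent B libraries were above the PBS mean, and the groups overlapped. Actn3, the alpha-actinin of fast fibres, averaged 121 ± 43.9, 99.9 ± 36.3 and 105 ± 35.8 CPM, and Ttn, titin, the elastic filament, 934 ± 264, 860 ± 165 and 757 ± 148 CPM. Des, the intermediate filament desmin, averaged 498 ± 165, 402 ± 107 and 398 ± 86.0 CPM. Tcap, the titin cap telethonin, averaged 197 ± 60.9, 152 ± 51.0 and 154 ± 28.6 CPM in Detergent B, Detergent A and PBS libraries, and Myoz1 and Ldb3, both Z disc linkers, had log2 fold changes of 0.32 and 0.38 for Detergent B over PBS.

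All 5 genes of calcium release and uptake had log2 fold changes above 0 for Detergent B over PBS, from 0.13 to 0.48, and none passed. Atp2a1, the calcium pump of fast fibres, averaged 1180 ± 187 CPM in Detergent B, 1030 ± 415 in Detergent A and 1029 ± 242 in PBS libraries (SD, n = 6 each), with its highest level, 1771 CPM, in Detergent A replicate 6. Pvalb, the calcium buffer parvalbumin, ran from 96.9 through a median of 142 to 272 CPM in Detergent B, from 62.5 through 152 to 208 CPM in Detergent A and from 138 through 145 to 268 CPM in PBS libraries. Its group means of 165, 145 and 166 CPM in Detergent B, Detergent A and PBS libraries differed by less than 1 SD. Casq1, the calcium store protein calsequestrin, had a log2 fold change of 0.48 ± 0.26 for Detergent B over PBS (SE, adjusted p = 0.259), and Ryr1, the release channel, and Cacna1s, its voltage sensor, had 0.28 ± 0.22 and 0.40 ± 0.27. Atp2a1 shares 17.9% of its 50-base stretches with the overlapping Rabep2, at a mean of 42.2 CPM, and Tnnc2 shares 47.9% with the overlapping Ube2c, at 42.0 CPM.

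The 4 energy genes had log2 fold changes of 0.11 to 0.45 for Detergent B over PBS. Ckm, the muscle creatine kinase, ran from 624 through a median of 935 to 1186 CPM in Detergent B, from 446 through 740 to 1098 CPM in Detergent A and from 686 through 808 to 1539 CPM in PBS libraries, the highest being PBS replicate 5. Its log2 fold changes were 0.11 ± 0.22 for Detergent B over PBS and -0.20 ± 0.22 for Detergent A over PBS (SE), and 0.30 and -0.01 without PBS replicate 5. Mb, the oxygen store myoglobin, ran from 147 through 190 to 364 CPM in Detergent B, from 104 through 147 to 230 CPM in Detergent A and from 116 through 164 to 253 CPM in PBS libraries. Mb had a log2 fold change of 0.49 ± 0.23 for Detergent B over Detergent A (unadjusted p of 0.0458, adjusted p = 0.989 by edgeR), and of 0.24 without Detergent B replicate 4, its highest library. Eno3, muscle enolase, and Pygm, muscle glycogen phosphorylase, had log2 fold changes of 0.42 ± 0.21 and 0.29 ± 0.21 for Detergent B over PBS (SE). No energy gene passed in any comparison.

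**Figure D3:**
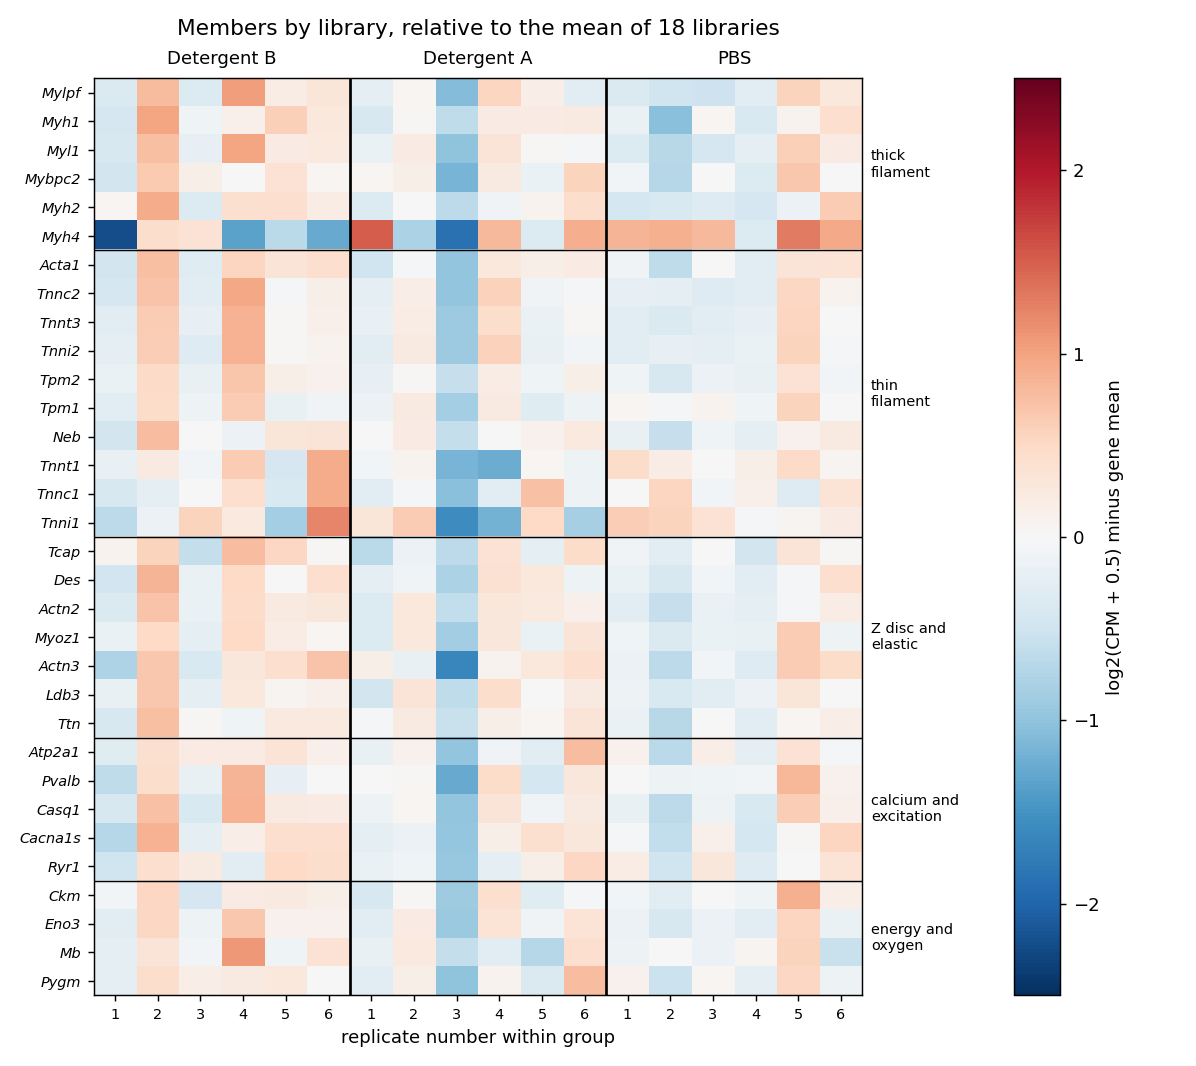
Each of 32 members by library, as log2(CPM + 0.5) minus the mean of that gene over 18 libraries, with members grouped by role and ordered by level per kb. Detergent A replicate 3 is low and Detergent B replicate 2 high in most rows, and the Myh4 row is high in 5 of 6 PBS libraries.

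Counted over all 32 genes tested, 0 passed an adjusted p of 0.05 by edgeR for Detergent B over PBS, where 3.05% of all genes tested did. Their log2 fold changes were above 0 in 31 of 32, all but Myh4, against 8204 of all 16836 genes. The median was 0.42, against -0.01 over all genes. These signs are on the TMM scale. In mean CPM, Ckm, Pvalb and Tnni1 were also lower in Detergent B than in PBS libraries. An unadjusted p under 0.05 was reached by 9 of 32, against 23.3% of all genes. DESeq2 called 0 of the 32, where it called 8.1% of the genes with an adjusted p, and voomWithQualityWeights called 13, 12 higher and Myh4 lower, where it called 30.1% of all genes. Without PBS replicate 6, edgeR called 2, Myh2 at 0.82 (adjusted p = 0.0179) and Actn2 at 0.63 (adjusted p = 0.0468), where it called 11.1% of all genes. The median log2 fold change was 0.27 without Detergent B replicate 2, and the count of 9 was then 1; without Detergent B replicate 4, the library with low long genes, the median was 0.33. That count was 2 to 6 without any 1 of Detergent B replicates 4, 5 and 6 and PBS replicates 1, 2, 3 and 4, and 18 or 19 without Detergent B replicate 1 or 3 or PBS replicate 5. Over the 18 left-out libraries the share of all genes at an unadjusted p under 0.05 moved as well, between 17.8% without PBS replicate 2 and 30.5% without PBS replicate 6.

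For Detergent A over PBS, 0 of 32 genes passed by edgeR, where 0.19% of all genes did, and 0 passed by DESeq2, which called 5.13% of the genes with an adjusted p, or by voomWithQualityWeights, which called 23.2% of all genes. The median was 0.10, with 23 of 32 above 0, against 8141 of all 16836 genes. An unadjusted p under 0.05 was reached by 0 of 32, against 18.8% of all genes. In mean CPM, Acta1, Actn3, Tnni2, Pygm, Myoz1 and Tcap, all above 0 here, were lower in Detergent A than in PBS libraries. Without Detergent A replicate 3 the median was 0.21, and without Detergent A replicate 4 it was -0.01 with 15 above 0. For Detergent B over Detergent A, 0 of 32 passed by edgeR, where 0.0% of all genes did, and 0 by DESeq2 or voomWithQualityWeights, which each called 0.0% of genes. There the median was 0.32, with 31 of 32 above 0, against 8395 of all 16836 genes. Mb and Tnnt1, 2 of 32, had an unadjusted p under 0.05, against 3.27% of all genes. The comparisons share libraries, so their directions are not separate observations. Most members also went up and down together over the libraries, so the genes are not separate observations either.

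**Figure D4:**
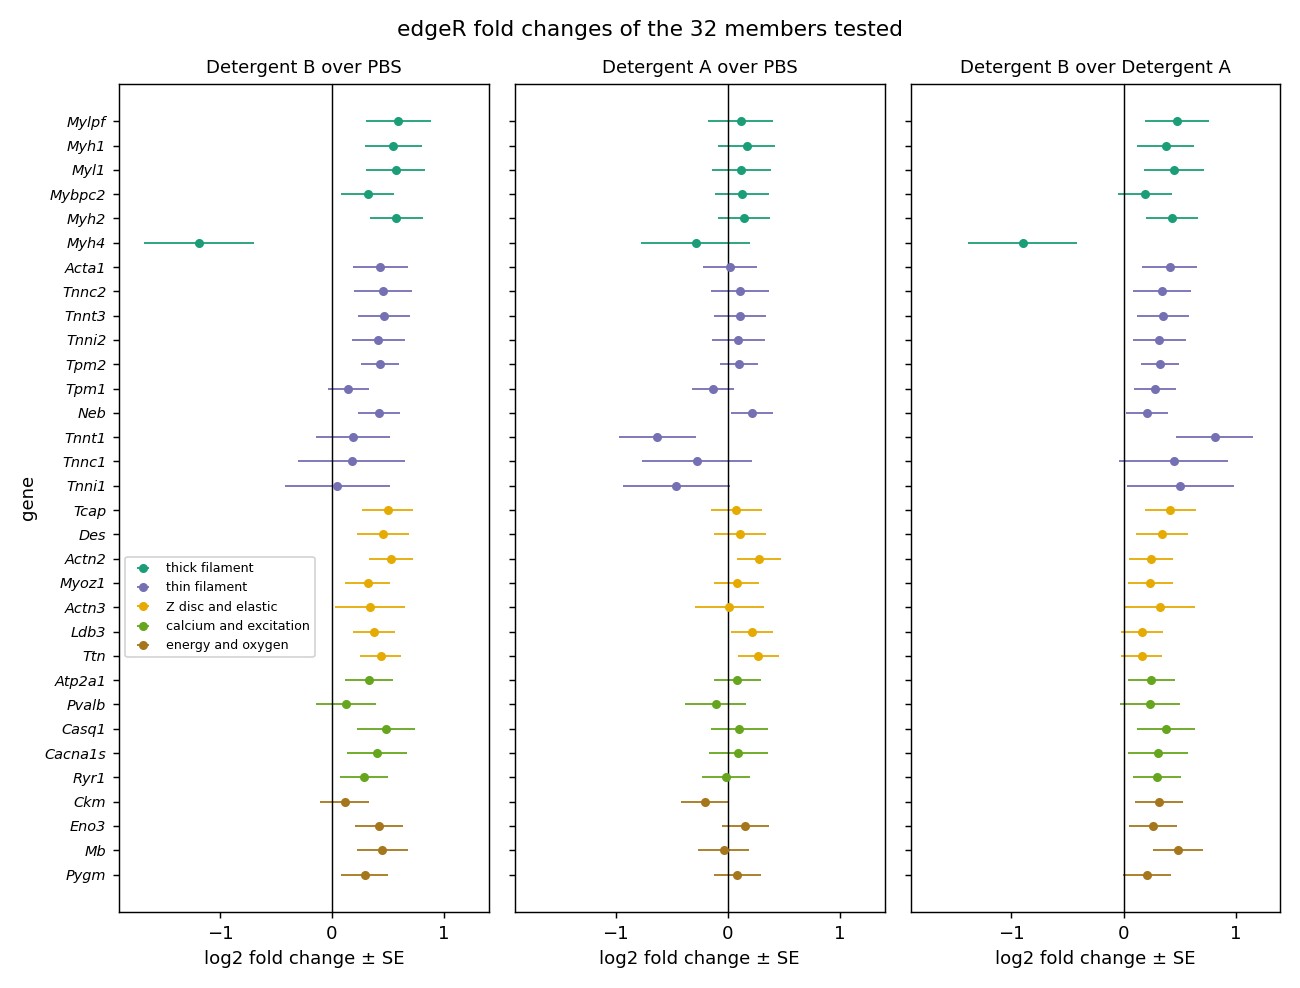
Log2 fold changes by edgeR with standard errors as bars for the 32 members tested, in 3 panels for Detergent B over PBS, Detergent A over PBS and Detergent B over Detergent A, coloured by role. In the first panel 31 of 32 points lie right of 0 and Myh4 lies at -1.19, and none passed an adjusted p of 0.05.

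Hair keratin levels differed in mean between the groups, and their ranges overlapped. The 8 hair keratin genes measured, of 9 listed, summed to 55.8 ± 74.6 CPM in Detergent B (1.42 to 175), 84.0 ± 108 in Detergent A (0.494 to 277) and 260 ± 148 in PBS libraries (11.9 to 461; SD, n = 6 each). For Detergent B over PBS 0 of 8 were called by edgeR, against 3.05% of all genes. An unadjusted p under 0.05 was reached by 7, against 23.3% of all genes. With voomWithQualityWeights 8 were called, all lower, against 30.1% of all genes. With their score as a covariate, the median log2 fold change of the 32 muscle genes for Detergent B over PBS was 0.19, with 26 above 0 and 0 at an unadjusted p under 0.05, against 10.1% of all genes in that fit, which called 0 genes of any kind. Acta1 then had 0.05, Myh1 0.13 and Myh2 0.23. Mb, Atp2a1, Pygm, Tnnt1 and Tnni1 went the other way, to 0.59, 0.37, 0.34, 0.35 and 0.33, above their values without the covariate. For Detergent A over PBS the median was -0.14, with 9 above 0. Under the same covariate Myh4 had -1.11 for Detergent B over PBS, so its value moved less than the median of the list did. The hair keratin level itself differed in mean between the groups, so this fit cannot tell it apart from treatment. The part of hair content in the muscle values was not tested.

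Of 43 further skeletal muscle genes, 41 were tested, and for Detergent B over PBS 38 had log2 fold changes above 0 with a median of 0.39. None passed by edgeR or DESeq2, where 3.05% of all genes and 8.1% of those with an adjusted p did. An unadjusted p under 0.05 by edgeR was reached by 14, against 23.3% of all genes. With voomWithQualityWeights 17 were called, all higher, against 30.1% of all genes. Trdn, triadin, which anchors calsequestrin at the release channel, had the smallest adjusted p by edgeR, 0.0957, with 88.3 ± 19.0 CPM in Detergent B, 74.9 ± 13.6 in Detergent A and 67.7 ± 19.3 in PBS libraries (SD, n = 6 each). For Detergent A over PBS 27 of 41 were above 0, and for Detergent B over Detergent A 39 of 41 were. Developmental heavy chain genes were low, with group means of 1.32 to 1.90 CPM for Myh3 and 4.68 to 6.36 CPM for Myh8. Of 7 myogenic and satellite cell genes, 5 were tested and 0 passed by edgeR, 1 having an unadjusted p under 0.05. That gene, Pax7, the satellite cell marker, averaged 0.660 ± 0.357 CPM in Detergent B, 0.426 ± 0.234 in Detergent A and 0.384 ± 0.142 in PBS libraries (SD, n = 6 each).

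Among 9 smooth muscle genes, 3 were above 0 for Detergent B over PBS, and Acta2, smooth muscle actin, fell to 94.2 ± 9.75 CPM in Detergent B, against 143 ± 26.6 CPM in PBS libraries (SD, n = 6 each), with a log2 fold change of -0.47 ± 0.11 (SE, adjusted p = 0.0326 by edgeR). DESeq2 called 3 of the 9, all lower, and voomWithQualityWeights 5, 4 lower and 1 higher, while with the hair keratin covariate edgeR called 0, Acta2 having an adjusted p of 0.335. Their summed level ran from 345 to 425 CPM in Detergent B, from 321 to 486 in Detergent A and from 419 to 606 in PBS libraries. The 8 adipocyte genes summed to 1969 ± 378, 1649 ± 369 and 1725 ± 278 CPM in Detergent B, Detergent A and PBS libraries. For Detergent B over PBS 0 were called by edgeR and 2 had an unadjusted p under 0.05. Car3 alone averaged 1344, 1093 and 1125 CPM, so the sum mostly follows this gene. The 6 fibroblast genes summed to 6118 ± 1274, 5121 ± 2160 and 7752 ± 1766 CPM in the same groups. For Detergent B over PBS 0 were called by edgeR and 1 by DESeq2, and 3 of 6 were above 0. Col1a1 and Col1a2 carried most of the lower sum, at log2 fold changes of -0.72 and -0.46. Dcn, Lum and Col3a1 had 0.21, 0.25 and 0.04. For Detergent A over PBS DESeq2 called 2, both lower. Keratinocyte genes summed to 38163 ± 6503, 33620 ± 9268 and 23176 ± 4622 CPM in the same groups, and 1 of 5, Krt1, rose with Detergent B, with a log2 fold change of 1.47 ± 0.28 (SE, adjusted p = 0.0159 by edgeR). DESeq2 called 2 of the 5 and voomWithQualityWeights 5, all higher, and with the hair keratin covariate edgeR called 0, Krt1 having an adjusted p of 0.228. Endothelial, Schwann and nerve, macrophage and brown fat genes, with 3, 4, 3 and 2 tested, had 0 called by edgeR in any comparison, with 1, 2, 0 and 1 at an unadjusted p under 0.05 for Detergent B over PBS, and voomWithQualityWeights called 1, 2, 0 and 2 there and DESeq2 0, 0, 0 and 1. The 2 brown fat genes tested were Cidea and Dio2. The third, Ucp1, was not kept by the filter, with 45 counts over all 18 libraries together and at most 13 in any library. Over all genes for Detergent B over PBS, edgeR called 3.05%, DESeq2 8.1% of those with an adjusted p, and voomWithQualityWeights 30.1%. An unadjusted p under 0.05 by edgeR was reached by 23.3% of all genes. The part of the cell types listed here in the muscle values was not tested.

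Muscle genes differed between libraries of the same group more than most genes of like level. The SD of log2 CPM within groups had a median of 0.43 over the 29 members with a mean above 5 log2 CPM, against 0.18 over 6711 other genes above that level, and 0 of the 29 lay below that median. Myh4 had the largest, 0.98, higher than 99.7% of genes within 0.5 log2 units of its level, and Actn3 followed at 0.63 and Mylpf at 0.55. Tpm2 had the smallest at 0.31. A 13.3-fold range over 18 libraries for Myh4 on the TMM scale compares with 4.71-fold for Myh1 and 3.22-fold for Acta1.

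**Figure D5:**
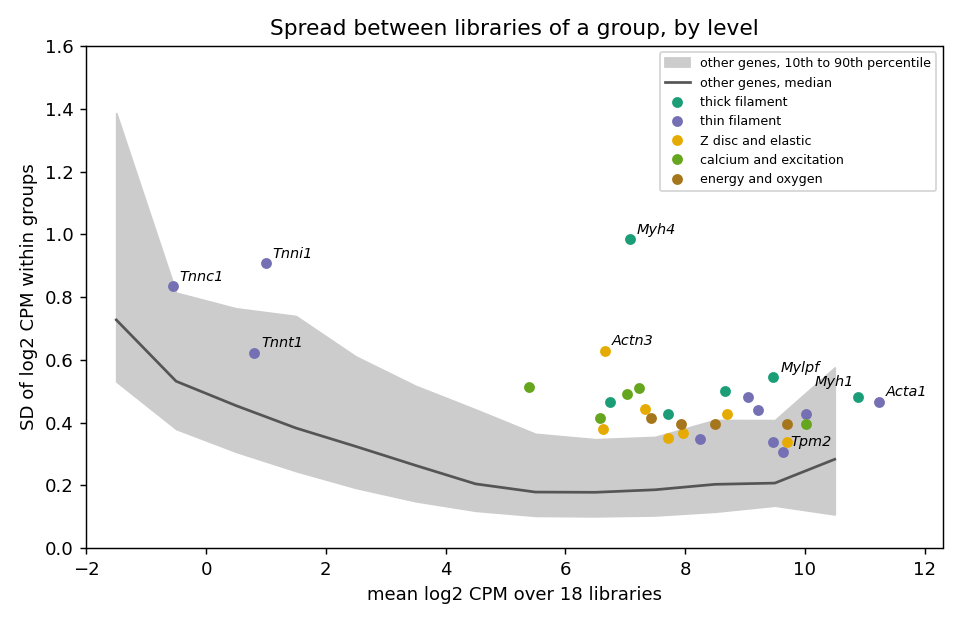
SD of log2 CPM within groups against mean log2 CPM, with 1 point for each of the 32 members coloured by role, a grey band for the 10th to 90th percentile of other genes in bins of 1 log2 unit and a line for their median. Members above 5 log2 CPM have a median SD of 0.43, and Myh4 reaches 0.98.

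Most members went up and down together over the libraries. Across 18 libraries, 22 of 32 members had a Pearson r above 0.8 with the mean of the other members, and 4 had an r under 0.5, namely Tnnt1, Tnnc1, Tnni1 and Myh4. Casq1 and Acta1 led at 0.95, and Myh4 was last at 0.15. With values centred on group means Myh4 had 0.46 and stood above Tnnt1 and Tnnc1 at 0.44 and Tnni1 at 0.25. These values share library totals and are given as a description. For 5 pairs with Myh1, r was 0.91 with Acta1 (Spearman rho 0.94), 0.84 with Myh2 (rho 0.86), 0.74 with Mylpf (rho 0.78), 0.68 with Ckm (rho 0.71) and 0.04 with Myh4 (rho 0.06). By permutation, Benjamini-Hochberg adjusted over the 5 pairs, p was 5e-05 for Acta1 and Myh2, 0.000783 for Mylpf, 0.00234 for Ckm and 0.881 for Myh4, and the rho values gave 5e-05, 5e-05, 0.00055, 0.00144 and 0.812. Without PBS replicate 2 and Detergent B replicate 2, the libraries farthest from the Myh1 median, r was 0.90, 0.82, 0.69, 0.61 and 0.12 in the order Acta1, Myh2, Mylpf, Ckm and Myh4. With values centred on group means, r was 0.91, 0.80, 0.68, 0.72 and 0.38 in the same order. The p-values above are for values that were not centred, so differences between groups enter them.

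Outside the 33, the genes named here as most like the mean of the members in log2 CPM over 18 libraries, among 14656 ranked, were Unc45b at r = 0.95, Rragd and Smyd1 at 0.94, Tmod4 and Lmod2 at 0.93, and Sypl2, Lmod3, Atp1b2 and Camk2a at 0.92. Unc45b encodes a myosin chaperone, Smyd1 a muscle methyltransferase, and Tmod4, Lmod2 and Lmod3 cap or nucleate thin filaments. Their mean levels lay between 12.9 and 44.3 CPM. For Detergent B over PBS their log2 fold changes lay between 0.38 and 0.56, the smallest adjusted p by edgeR being 0.169. They were picked for their likeness to the members over these same libraries. Fold changes close to those of the members follow from that choice and are not separate observations.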

How the data were processed

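RNA was sequenced from mouse skin in 18 libraries, and the authors deposited whole-number counts per Ensembl gene, 1 file per library, not normalised. STAR, featureCounts and GRCm38.p5 are named per the submitters' processing notes; versions, strand and multi-mapping settings are not stated in those sources. Of 41605 IDs, 41519 matched GENCODE M21, which gave symbols and exon lengths. CPM is the count over the library total. Genes kept by filterByExpr (16836) were scaled by TMM and tested with edgeR 4.0.16 (quasi-likelihood, robust, group only, 18 libraries) in R 4.3.3, with Benjamini-Hochberg adjustment and a threshold of 0.05. Other settings used limma 3.58.1, DESeq2 1.42.0, other scaling and filters, covariates, a replicate block and each library left out. The fit was tested on simulated data. All 33 members were named by rule, with the 10 non-members most like them, of which 1 is not reported here. Members, lists and rules were chosen with earlier results of these data known. Counts limit precision for slow-fibre genes. No pair of libraries agreed within sampling noise (chi-square per gene of at least 9.36).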

Additional observations from a re-analysis of the deposited data

Results flagged for a closer look

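In 102 sets of 6 libraries (the log2 CPM of 32 genes, the summed share and the Myh4 share, in each group), 7 held a single library whose gap to the nearest other exceeded the limit of Dixon's test; chance marks about 1 in 20 sets. Detergent A replicate 3 was low for Actn3 at 32.4 CPM (others 89.6 to 135), for Neb at 201 CPM (others 305 to 361) and for Mybpc2 at 47.5 CPM (others 96.0 to 157). PBS replicate 6 was high for Myh2 at 327 CPM (others 155 to 189), PBS replicate 4 was low for Myh4 at 106 CPM (others 237 to 334), and PBS replicate 5 was high for Tpm1 at 1047 CPM (others 662 to 755) and for Myoz1 at 154 CPM (others 76.8 to 91.7).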

How the results depend on the processing

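The count of muscle genes past the threshold for Detergent B over PBS was 0 by edgeR, where 3.05% of all genes passed. It was 13 with voomWithQualityWeights, where 30.1% of all genes passed. With libraries left out in turn it was 0 to 2, the 2 without PBS replicate 6, where 11.1% of all genes passed. It was 0 with other size factors, with members left out of the totals, without the filter, with DESeq2, with only the 12 libraries compared and with either covariate. For Detergent A over PBS and Detergent B over Detergent A it was 0 in every setting and with every library left out. The cause of the voomWithQualityWeights calls was not tested. Differences in summed share and in Myh4 share moved by less than 1 SD under every alternative, the SD being that between libraries within the groups compared. This limit is wide. For summed share the SD was 0.466 points in Detergent B and 0.326 in PBS libraries, against a difference of 0.295. For Myh4 share it was 6.59 points in Detergent A libraries, against differences of -3.52 from PBS and -4.72 for Detergent B minus Detergent A. A move within 1 SD therefore does not show that a difference is stable. With libraries left out, the summed share differed by 0.17 to 0.41 points for Detergent B minus PBS. It differed by -0.10 to 0.11 for Detergent A minus PBS and by 0.18 to 0.43 for Detergent B minus Detergent A. The Myh4 share then differed by -9.33 to -6.66, by -5.92 to -1.93 and by -5.85 to -2.32 points in the same comparisons. Deviations of same-numbered libraries of different groups had a correlation over 0.1 in 8 of 18 pairs (from -0.35 to 0.55). Without differently numbered pairs beside them, these values do not settle whether the numbers pair the libraries. With the replicate block, 0 muscle genes passed in each comparison, with 8 at an unadjusted p under 0.05 for Detergent B over PBS. In that fit 4229 of all 16836 genes were at an unadjusted p under 0.05. The design has 6 libraries per group, and the standard errors of the 32 genes, 0.17 to 0.49 on the log2 scale for Detergent B over PBS, set the size of change it can show.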
